A study of Saccharomyces cerevisiae with 4 samples.

Results

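The cytosolic ribosomal protein genes of Saccharomyces cerevisiae were examined in 4 peak lists made by ChIP-nexus, which maps a protein on DNA by immunoprecipitation followed by exonuclease digestion to the edge of the crosslink. Members were all protein-coding genes whose symbol is RPL or RPS followed by a digit, together with the stalk genes RPP0, RPP1A, RPP1B, RPP2A and RPP2B. This gave 137 of the 6002 annotated protein-coding genes. Pho4 was read in 2 libraries of the W303 strain Z1441, which carries PHO4::9myc::TRP1, and Cbf1 in 2 libraries of the W303 strain Z1497, which carries CBF1::9myc::TRP1. Both proteins thus bore 9 copies of the Myc epitope and were precipitated with the antibody ab9E10. The labels give all 4 libraries the same culture, in YPD at 25 °C and then for 2 h in medium without phosphate. No untagged, input or phosphate-rich library was analysed here, and each factor was represented by 1 strain. The labels do not say that the 2 libraries of a factor came from separate cultures, so a p-value concerns only these libraries. With 2 libraries per factor, the exact permutation p is 0.33 whenever the values of the factors do not overlap, whatever the size of the difference.

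The lists stop at different places in the text order of the chromosome names. The Pho4 lists held 2026 and 2210 peaks and covered 108 and 137 ribosomal protein genes. The Cbf1 lists held 933 and 1575 peaks and covered 57 and 106 of them. Comparisons between factors therefore used the region that all 4 lists reach, with 57 ribosomal protein genes and 2451 other protein-coding genes. It consists of chromosome VII as far as position 856779 and of chromosomes I, II, III, IV, V, VI and IX. That region held 1105, 941, 920 and 853 peaks in the order Pho4 replicate 1, Pho4 replicate 2, Cbf1 replicate 1 and Cbf1 replicate 2, which is used throughout. A gene was counted with a list when a peak overlapped its body or the 500 bp upstream of its start codon by at least 1 bp. The fold of a peak is the authors' value over the local background, and the summit is the position of highest signal.

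Ribosomal protein genes encode the proteins of the large subunit (RPL), the small subunit (RPS) and the acidic stalk of the large subunit (RPP), where elongation factors dock. They are among the most heavily transcribed genes of growing yeast, most exist as a pair of near-identical paralogs, and many carry an intron near the start codon, which is otherwise rare in this organism. Their promoters are known as binding sites of Rap1, with Fhl1, Ifh1, Sfp1 and, at many, Hmo1. Pho4, the activator of phosphate starvation genes, and Cbf1, a regulator of sulfur metabolism genes and a centromere protein, share a basic helix-loop-helix domain and the same preferred site, the E-box CACGTG.

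The E-box was rare at these genes, and 4 of the 6 that hold it in the upstream window or body are shown first. The reference sequence of assembly R64, which is the build sacCer3 of the lists, is the S288C strain and may differ from W303. Each is written 5′ to 3′ on the strand of its gene, and capitals mark CACGTG. The first 3 lie upstream of the start codon and the fourth in an intron.

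RPP2B, chrIV:1239171-1239251 (+ strand): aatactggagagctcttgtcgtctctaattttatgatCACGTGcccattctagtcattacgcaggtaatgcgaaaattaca
RPS21A, chrXI:551200-551280 (+ strand): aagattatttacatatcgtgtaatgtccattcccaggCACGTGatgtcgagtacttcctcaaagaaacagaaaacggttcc
RPL11A, chrXVI:731932-732012 (- strand): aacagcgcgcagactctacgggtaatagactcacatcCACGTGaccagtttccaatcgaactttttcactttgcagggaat
RPL6B, chrXII:1028882-1028962 (+ strand): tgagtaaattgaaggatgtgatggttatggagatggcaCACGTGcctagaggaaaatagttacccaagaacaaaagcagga

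The next 3 show upstream regions with a Pho4 summit in which capitals mark a Rap1-type core, read as CA, any base, CC, any 2 bases and ACA on either strand, so that on the other strand it begins with TGT. Each spans the core and the mean summit of the 2 Pho4 libraries, and that of RPL13B holds both of its facing cores.

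RPL13B, chrXIII:551419-551643 (- strand): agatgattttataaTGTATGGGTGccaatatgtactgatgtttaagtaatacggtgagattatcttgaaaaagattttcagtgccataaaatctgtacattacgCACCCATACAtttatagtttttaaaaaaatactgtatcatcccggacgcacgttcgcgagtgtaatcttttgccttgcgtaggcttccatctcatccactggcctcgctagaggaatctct
RPS18A, chrIV:1359582-1359726 (+ strand): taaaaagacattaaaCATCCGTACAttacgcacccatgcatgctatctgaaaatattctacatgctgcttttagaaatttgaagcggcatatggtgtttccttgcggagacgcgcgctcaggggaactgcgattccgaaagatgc
RPL40A, chrIX:68336-68484 (+ strand): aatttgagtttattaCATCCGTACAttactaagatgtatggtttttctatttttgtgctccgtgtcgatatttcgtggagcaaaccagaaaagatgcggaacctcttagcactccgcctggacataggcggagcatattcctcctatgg

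The last 4 are 151 bp windows centred on the mean summit of a factor, upstream at RPS14A and RPL6A for Pho4 and in the coding body at RPL28 and RPL32 for Cbf1. They hold neither CACGTG nor the core, so none of their letters is in capitals.

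RPS14A, chrIII:178309-178459 (- strand): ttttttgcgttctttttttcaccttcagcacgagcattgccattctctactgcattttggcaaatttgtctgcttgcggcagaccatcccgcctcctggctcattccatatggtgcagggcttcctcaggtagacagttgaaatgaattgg
RPL6A, chrXIII:124295-124445 (- strand): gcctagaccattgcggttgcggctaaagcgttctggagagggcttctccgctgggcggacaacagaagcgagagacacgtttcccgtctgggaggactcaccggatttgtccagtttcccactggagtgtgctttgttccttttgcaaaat
RPL28, chrVII:311652-311802 (+ strand): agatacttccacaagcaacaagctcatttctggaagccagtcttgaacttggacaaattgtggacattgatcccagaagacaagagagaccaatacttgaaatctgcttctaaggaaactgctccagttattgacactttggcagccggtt
RPL32, chrII:46146-46296 (+ strand): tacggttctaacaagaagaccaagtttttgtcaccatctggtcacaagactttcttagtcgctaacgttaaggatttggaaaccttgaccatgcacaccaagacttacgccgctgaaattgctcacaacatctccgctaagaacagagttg

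Ribosomal protein genes were in the Cbf1 lists far more often than other genes were, and in the Pho4 lists about as often. Of the 57 genes, 30 had a peak in Pho4 replicate 1, where 43.5% of other genes had one, and 23 had a peak in Pho4 replicate 2, against 39.2% of other genes. In Cbf1 replicate 1, 45 had a peak, against 32.7% of other genes, and in Cbf1 replicate 2, 44 had a peak, against 31.7%. As shares of the 57 genes these are 52.6%, 40.4%, 78.9% and 77.2%. Both Cbf1 values lay above both Pho4 values. The Pho4 mean was 46.5% ± 8.68 and the Cbf1 mean 78.1% ± 1.24 (SD, n = 2 each), a difference of 31.6 percentage points (exact permutation test over the 6 assignments of the libraries, two-sided, p = 0.33, the smallest it allows). Taken as the excess over other genes in the same list, the values were 9.18, 1.18, 46.2 and 45.4 percentage points, and the factors differed by 40.7 points (exact permutation p = 0.33).

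The position on the gene separated the factors more than the presence of a peak. A summit lay inside the body of 5 and 0 ribosomal protein genes in the Pho4 lists, where 16% and 13.7% of other genes had one. In the Cbf1 lists 35 and 37 of the 57 had a body summit, against 14.8% of other genes in each list. The means were 4.39% ± 6.20 for Pho4 and 63.2% ± 2.48 for Cbf1 (SD, n = 2 each), a difference of 58.8 points with no overlap (exact permutation p = 0.33). Other genes showed no such gap, with 14.8% ± 1.67 for Pho4 and 14.8% for Cbf1. Upstream summits were found at 22 and 21 ribosomal protein genes for Pho4, against 25.3% and 22.5% of other genes. For Cbf1 they were found at 27, against 14% of other genes, and at 9, against 13.1%. The Cbf1 libraries disagreed here, at 47.4% and 15.8% of the 57 genes, and the Pho4 values of 38.6% and 36.8% lay between them. The difference of -6.14 points had an exact permutation p of 1.00 and turned to 9.65 without Cbf1 replicate 2. Summits both upstream and in the body were found at 2 and 0 of the 57 genes for Pho4, against 5.18% and 4.24% of other genes, and at 18 and 4 for Cbf1, against 3.51% and 2.45%. Cbf1 replicate 1 thus often had both.

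**Figure D1:**
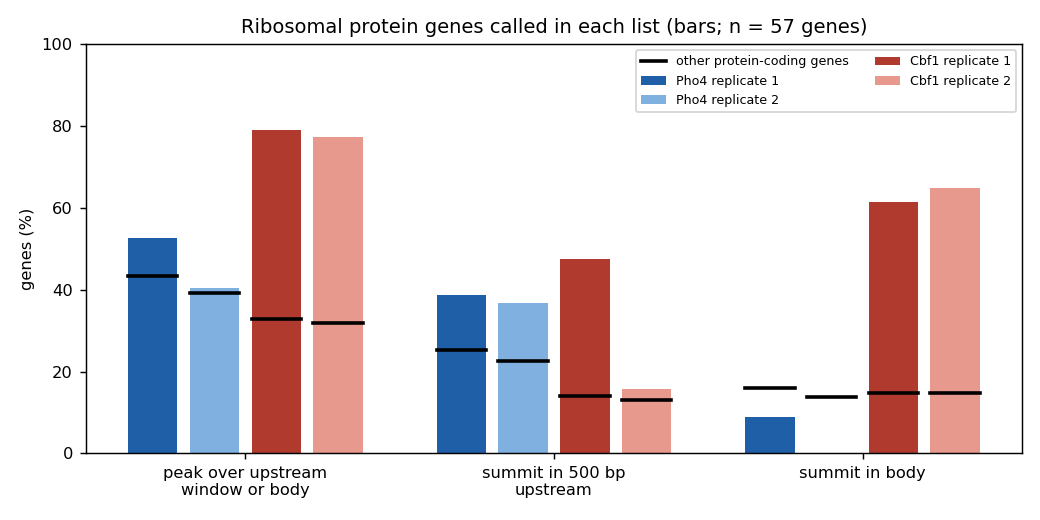
Share of the 57 ribosomal protein genes (bars, percent) called in each of the 4 peak lists by 3 rules, with the share of the 2451 other protein-coding genes as a black line across each bar. Body summits stood at 61.4% and 64.9% in the Cbf1 lists and at 8.77% and 0 in the Pho4 lists.

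Body length could move these counts, since a longer body can hold more summits, and ribosomal protein genes are short. Their median body was 765 bp, against 1200 bp for other genes. Among 440 other genes of 525 to 890 bp, the middle range of the members' lengths, 12.05%, 7.95%, 11.1% and 7.95% had a body summit. Introns were present in 35 of the 57 ribosomal protein genes and in 4.12% of other genes. With an intron, 4, 0, 23 and 24 of 35 ribosomal protein genes had a body summit. Without one the counts were 1, 0, 12 and 13 of 22, so Cbf1 body summits were found in both classes. Of 101 other genes with an intron, 18.8%, 10.9%, 22.8% and 11.9% had one.

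Body summits of Cbf1 were found at genes of both subunits. The shares of other genes to read these against are 43.5%, 39.2%, 32.7% and 31.7% for a peak and 16%, 13.7%, 14.8% and 14.8% for a body summit. Of 35 large subunit genes, 18, 11, 26 and 26 had a peak, and 3, 0, 21 and 23 had a body summit. Of 19 small subunit genes, 11, 10, 16 and 16 had a peak, and 2, 0, 13 and 13 had a body summit.

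Both libraries of a factor called 18 of the 57 genes for Pho4, against 34.9% of other genes, and 39 of 57 for Cbf1, against 25.2% of other genes. A body summit in both libraries was found at no gene for Pho4, against 10.6% of other genes, and at 31 genes for Cbf1, against 9.06%. An upstream summit in both libraries was found at 15 genes for Pho4, against 18.8% of other genes, and at 8 for Cbf1, against 9.87%. All 4 lists held 15 of the genes, against 18% of other genes. They included RPL12A, RPL19A, RPL21A, RPL27B and RPL40A of the large subunit, RPS2, RPS6B, RPS11A, RPS14A, RPS18A, RPS23A, RPS24B and RPS25A of the small subunit, and RPP1B of the stalk. The highest Cbf1 peaks over RPL21A are those of the neighbouring RPS9B, with summits 1045 and 934 bp before its start codon, and RPL21A also had lower Cbf1 peaks in exon 2, of fold 2.18 and 2.90. No list held 4 of the 57, RPL2A, RPL34A and RPS29B among them, where 42.6% of other genes were in no list. Both Cbf1 lists and neither Pho4 list held 11, against 4.08% of other genes. These were RPL2B, RPL19B, RPL22B, RPL24A, RPL24B, RPL34B, RPS9B, RPS16B, RPS17B, RPS24A and RPS26A. The reverse was seen at RPL23B and RPL31A only, 2 of 57, against 11.6% of other genes.

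**Figure D2:**
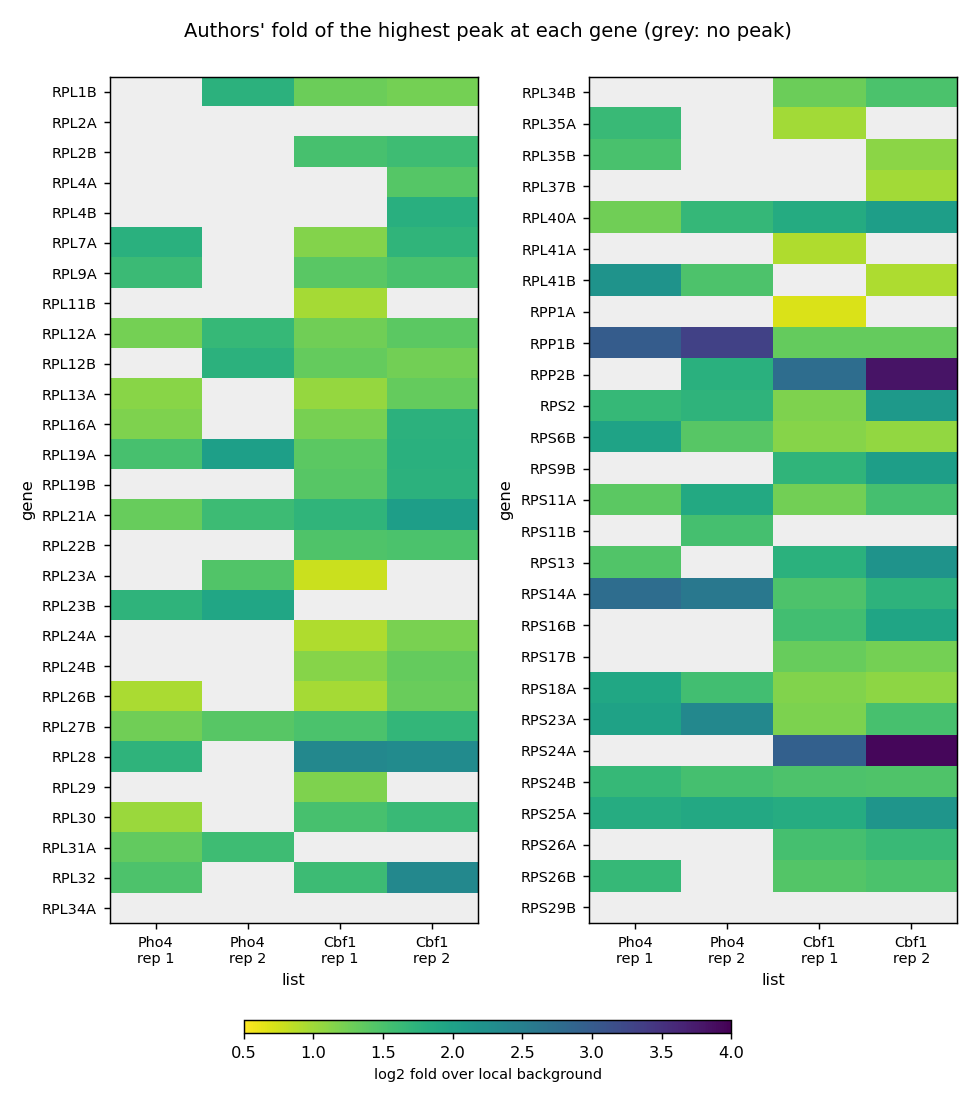
Colour gives the log2 of the authors' fold of the highest peak at 55 of the ribosomal protein genes of the compared region (rows) in each of the 4 lists (columns), and grey cells have no peak. Of these, 44 and 43 have a Cbf1 peak and 29 and 22 a Pho4 peak in the 2 replicates, and the darkest cell is RPS24A in Cbf1 replicate 2, with a fold of 15.3.

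The remaining 80 genes were covered by fewer lists, 49 of them by 3 lists and 29 by Pho4 replicate 2 alone. There Pho4 replicate 1 had a peak at 31 of 51 genes, against 44% of other genes, an upstream summit at 18, against 25.9%, and a body summit at 10, against 15.7%. In that list body summits were thus not rarer than at other genes, unlike in the compared region. Pho4 replicate 2 had a peak at 42 of 80, against 39.8%, an upstream summit at 35, against 23%, and a body summit at 2, against 13%. Cbf1 replicate 2 had a peak at 40 of 49, against 32.8% of other genes, an upstream summit at 12, against 12.5%, and a body summit at 33, against 16.1%. Over the whole region that both Pho4 lists reach, 38 of 108 genes had a peak in both, against 35% of other genes. An upstream summit in both was found at 30, against 18.9%, and a body summit in both at 2, RPL8A and RPL10, against 10.4%. In all, 117 of the 137 genes had a peak in at least 1 list that covers them, against 52.7% of other genes.

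Pho4 summits upstream of ribosomal protein genes were concentrated in a narrow zone. Their median distance from the start codon was 216 and 249 bp in the 2 libraries, against 293 and 288 bp at other genes. Of these summits, 22 of 22 and 19 of 21 lay 150 to 350 bp from the start codon, where 50.9% and 53.2% of upstream summits of other genes did. The limits of this zone were not part of the planned counts. Over the full extent of each list the counts were 34 of 40 and 44 of 56, without a share for other genes. Cbf1 summits had medians of 257 and 310 bp, against 289 and 289.5 bp at other genes. In the same zone lay 20 of 27 and 5 of 9 of them, against 49.9% and 51.8% at other genes. The 2 Pho4 libraries placed the summit close together, with a median of 18.5 bp between them at the 30 genes with an upstream summit in both over their full extent, 26 of which lay within 50 bp.

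Cbf1 body summits lay mostly past the midpoint of the gene. The share past it was 65% of 40 summits in replicate 1 and 78.9% of 38 in replicate 2, against 55.5% and 57.3% of body summits of other genes. In genes with introns, 22 of 26 and 22 of 25 body summits lay in exon 2, and 4 and 3 lay in an intron. The peaks were broad. The median width of peaks with a body summit was 479 and 546.5 bp, against 256 and 271 bp at other genes. The replicate summits were less tightly placed than those of Pho4 upstream, with a median of 62 bp between them at 31 genes, 15 of which lay within 50 bp.

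**Figure D3:**
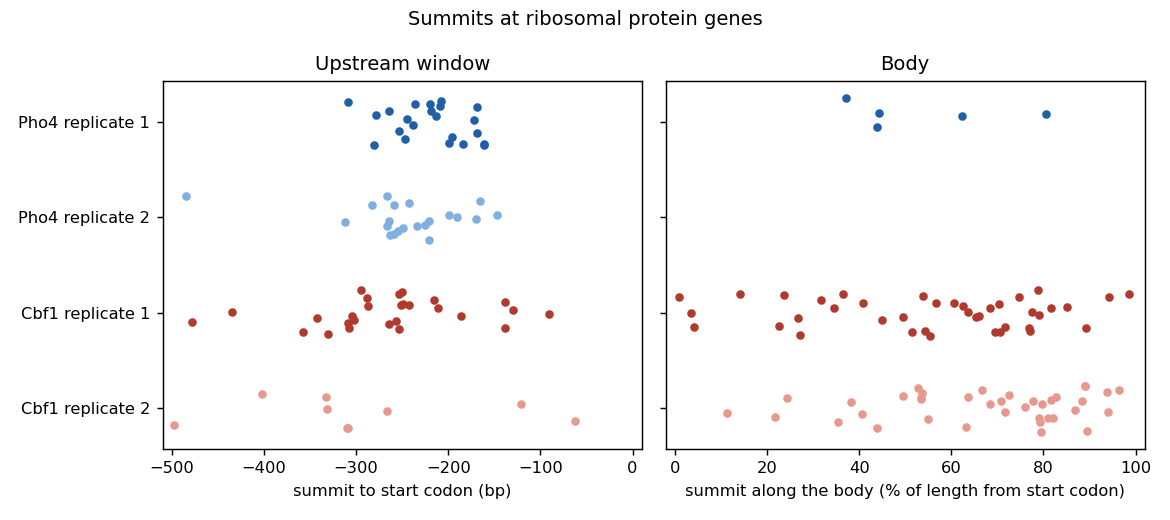
Each point is 1 summit at a ribosomal protein gene of the compared region, by its distance to the start codon in bp (left) or its place along the body in percent of length (right), with the 4 libraries in rows and vertical scatter added for display. Pho4 points crowd between 150 and 350 bp upstream, whereas most Cbf1 points lie in the body.

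Among large subunit genes, RPL40A, which encodes a ribosomal protein made as a fusion to ubiquitin, had summits of both kinds. Its Pho4 peaks had folds of 2.38 and 3.17 with summits 238 and 249 bp upstream, and its highest Cbf1 peaks had folds of 3.59 and 4.09 with summits 670 and 671 bp past the start codon, in exon 2. Cbf1 replicate 1 had a further peak upstream, with a fold of 2.76 at -257 bp, close to the Pho4 summits. RPL28, which encodes the protein altered in classic cycloheximide-resistant mutants, had the highest Cbf1 body peaks of any member in the compared region by mean fold, 5.15 and 4.95, at 759 and 761 bp. These summits lay in exon 2 but nearest to the start of YGK1. RPL28 had Pho4 peaks in replicate 1 only, with a fold of 2.64 at -196 bp and a fold of 3.30 in the intron at 422 bp. RPL32, a gene without an annotated intron, had Cbf1 folds of 3.03 and 5.17 at 238 and 248 bp, and a Pho4 peak in replicate 1 alone with a summit nearer to the start of ROX3. RPL19A carried Pho4 summits 278 and 267 bp upstream with folds of 2.86 and 4.05 and Cbf1 summits at 760 and 735 bp with folds of 2.61 and 3.42. RPL27B had Pho4 folds of 2.38 and 2.65 at 209 and 243 bp upstream and Cbf1 folds of 2.82 and 3.20 at 676 and 691 bp. In Cbf1 replicate 1 both genes also had an upstream summit, at -358 bp with a fold of 2.12 in RPL19A and at -186 bp with a fold of 2.15 in RPL27B. RPL12A, without an intron, had Pho4 folds of 2.34 and 3.16 at 281 and 267 bp upstream and Cbf1 folds of 2.38 and 2.60 at 469 and 446 bp.

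Outside the compared region, RPL6A and RPL6B, a paralog pair, were both among the 8 members of highest Pho4 fold. RPL6A had folds of 8.10 and 6.34 with summits 212 and 184 bp upstream and, in Cbf1 replicate 2, a fold of 3.56 at 600 bp in exon 2 and of 2.52 at -219 bp. RPL6B had a fold of 9.32 with a summit at 49 bp, inside its intron and 19.5 bp from the intronic E-box printed above, in Pho4 replicate 1. In Pho4 replicate 2 the fold was 6.94 and the summit of the peak lay 183 bp upstream. Cbf1 replicate 2 placed its summit at 51 bp, 17.5 bp from the same E-box, with a fold of 3.84. RPL15B had Pho4 folds of 9.65 and 9.28, with summits 640 and 622 bp upstream that lay nearest to the start of YMR122C. RPL13B and RPS16A are divergent neighbours and share 1 Pho4 peak, with folds of 5.85 and 6.96 and a summit 232 bp from the start of RPL13B and 489 bp from that of RPS16A. In Cbf1 replicate 2 both genes had a summit in exon 2, with folds of 2.74 and 2.31, that of RPL13B nearest to the start of YMR141C.

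Among small subunit genes, RPS14A had the highest Pho4 folds of the compared region for a summit inside the upstream window, 6.74 and 6.04 at 161 and 166 bp. Its highest Cbf1 folds of 2.79 and 3.34 came from summits at 389 and 396 bp in exon 2, and Cbf1 replicate 1 also had a fold of 2.54 at -330 bp. RPS23A had Pho4 folds of 3.96 and 5.15 at 253 and 255 bp upstream, in a region it shares with the divergent gene YGR117C, whose start is nearer to the summit. Its highest Cbf1 folds were 2.28 and 2.87 at 582 and 710 bp, and Cbf1 replicate 1 also had a fold of 2.17 at -215 bp. RPS11A, RPS18A and RPS2 each had 1 or more Pho4 summits 208 to 312 bp upstream and a Cbf1 summit in the body in at least 1 library, with Cbf1 folds of 2.38 and 2.91, 2.25 and 2.13, and 2.27 and 4.36 for the highest peaks. In Cbf1 replicate 1 each of the 3 also had an upstream summit, at -253, -251 and -342 bp. RPS2 had further Pho4 replicate 1 peaks, of fold 2.26 in the body at 477 bp and 3.145 past the stop at 918 bp. The latter was its highest in that list. RPS25A had Cbf1 folds of 3.55 and 4.50 at 113 and 175 bp, RPS13 had 3.39 and 4.59 at 681 and 806 bp, and RPS9B had 3.27 and 4.11 at 717 and 828 bp. The RPS13 summits lay in exon 2 but nearest to the start of RRG1. The highest Pho4 peaks of RPS25A, of fold 3.57 and 3.71, had summits past the 500 bp window at -571 and -575 bp. A lower peak in Pho4 replicate 1 had its summit past the stop. RPS6B and RPS24B, also in all 4 lists, had no Cbf1 summit of their highest peak in the body. RPS24B had Pho4 folds of 3.15 and 2.90 at 247 and 259 bp upstream and Cbf1 folds of 2.78 and 2.77 at 91 and 333 bp upstream, with a lower peak in exon 2 in Cbf1 replicate 1.

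Some high folds at small subunit genes came from peaks that sit nearer to another gene. RPS4A was counted with Pho4 folds of 41.5 and 37.2 and a Cbf1 replicate 2 fold of 19.8, but the summits lay 724, 720 and 725 bp upstream, past the 500 bp window and nearest to the start of YJR146W. RPS24A was counted with Cbf1 folds of 7.58 and 15.3, whose summits lay 1151 and 1175 bp from its start codon, past its stop and nearest to the start of YOS1, 29.5 and 5.5 bp from a CACGTG. In Cbf1 replicate 1 it also had summits of its own, with folds of 1.65 upstream and 1.45 in exon 2. Outside the named-gene rule, and chosen after its value was seen, RPL43B had the highest Cbf1 fold of any member, 30.8 in replicate 2, with a summit 720 bp from its start codon, past its stop. RPS21A had strong peaks in its own upstream window, with Pho4 folds of 7.92 and 9.29 at 420 and 390 bp and a Cbf1 replicate 2 fold of 18.1 at 388 bp. These summits lay 2.5, 27.5 and 29.5 bp from the E-box printed above.

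The 5 stalk genes differed from one another. RPP2B, which encodes an acidic stalk protein, had Cbf1 folds of 6.75 and 14.1 at 304 and 309 bp upstream, 22.5 and 27.5 bp from its E-box. It had no peak in Pho4 replicate 1 and a fold of 3.44 at 283 bp, 1.5 bp from that E-box, in Pho4 replicate 2. RPP1B had Pho4 folds of 7.92 and 10.0, with summits 613 and 599 bp upstream that lay nearest to the start of STF1, and Cbf1 folds of 2.52 at 130 bp upstream and 2.51 at 440 bp in exon 2, with a second peak of fold 1.81 at -121 bp in Cbf1 replicate 2. RPP1A had 1 peak, of fold 1.62 in Cbf1 replicate 1. RPP0, which anchors the stalk to the ribosome, had body summits with folds of 2.05 and 1.98 in Pho4 replicate 1 at 379 and 828 bp and 4.29 in Cbf1 replicate 2 at 704 bp. RPP2A, covered by Pho4 replicate 2 only, shared a peak of fold 4.85 with the neighbouring RPS15, at 248 bp upstream of RPP2A and 472 bp upstream of RPS15.

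Paralogs share nearly all of their protein sequence and little of their promoters. Over 57 pairs, the median identity was 99.2% for the protein, 93.2% for the coding sequence and 49.1% for the 500 bp upstream. Of the 37 pairs covered by both Pho4 lists, 4 had a peak at both genes in both lists. Another 13 were split, with a peak at 1 gene in both lists and at the other in neither. A further 6 had no peak in either Pho4 list. Counted singly, 35.2% of ribosomal protein genes and 35% of other genes had a peak in both Pho4 lists. Pairs of other genes were not counted, so whether splitting is particular to these pairs was not tested. The split pairs of highest Pho4 fold were RPS4, RPS21, RPS16, RPS14 and RPL41. RPS14B and RPS21B had no Pho4 peak, beside the folds of RPS14A and RPS21A above. RPS16B had no Pho4 peak but had Cbf1 folds of 2.94 and 3.84 at 540 and 462 bp, in exon 2. RPL41B had Pho4 folds of 4.58 and 2.78 at 213 and 221 bp upstream, and RPL41A had none. Of the 13 pairs covered by both Cbf1 lists, 5 had peaks at both genes in both lists and 4 were split. Counted singly, 68.4% of ribosomal protein genes and 25.2% of other genes had a peak in both Cbf1 lists. Among the split pairs, RPL2B, RPS11A and RPL34B had peaks, and RPL2A, RPS11B and RPL34A had none in either Cbf1 list. RPL2B had Cbf1 folds of 2.86 and 3.01 at 600 and 577 bp, and RPL34B had 2.43 and 2.82 at 626 and 601 bp. Coding identity was 96.3% for the RPL2 pair and 92.6% for RPL34. How reads that match both copies were placed is not given in the sources used here, so a body peak at 1 gene of such a pair may hold reads of the other. Among the 13 genes of the compared region without a paralog of at least 95% protein identity, the share with a body summit was 23.1%, 0, 61.5% and 69.2% in the 4 lists.

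The factors' own motif was scarce at these genes. CACGTG was present in the 500 bp upstream of 3 of 137 ribosomal protein genes (2.19%) and of 6.33% of other genes. These were RPP2B, at 281 bp, RPS21A, at 417 bp, and RPL11A, at 224 bp, each with a T directly 5′ of the core on 1 strand. RPL11A encodes a protein that joins the ribosome with the 5S RNA, and Pho4 replicate 2, the only list that covers it, had a fold of 8.84 with a summit 1.5 bp from the E-box. In bodies CACGTG was found in 3 genes, 2.19%, against 8.88% of other genes, each time in an intron. Besides RPL6B these were RPL36A, which had no peak in the lists that cover it, and RPL7A. RPL7A had summits 19.5, 30.5 and 3.5 bp from the intronic E-box in Pho4 replicate 1, Cbf1 replicate 1 and Cbf1 replicate 2, with folds of 3.43, 2.22 and 3.27, in peaks that also overlap the small nucleolar RNA gene SNR39. Pho4 replicate 2 had no peak there. In the compared region, CACGTG lay within 50 bp of the summit for 1 of 34, 1 of 23, 4 of 72 and 3 of 55 peaks at ribosomal protein genes. These shares of 2.94%, 4.35%, 5.56% and 5.45% compare with 20.6%, 22.9%, 16.9% and 22.6% of the other peaks. All 4 lists had the lower share at ribosomal protein genes. The factors differed by 1.86 points (exact permutation p = 0.33), and the sign of that difference depended on the settings.

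Upstream of ribosomal protein genes the letters of a Rap1-type core were common. The letters CACCC, any 2 bases and ACA, on either strand, were found in 29 of 137 (21.2%) and in 1.77% of other upstream windows. The looser core of the printed sequences, which allows any base at the third place, includes the former and was chosen after the stricter letters had been counted. It was found in 60 of 137 (43.8%) and in 5.12% of others. The 72 matches had a median distance of 326.5 bp from the start codon, farther out than the Pho4 summits. At genes with this core, 15 of 17 Pho4 replicate 1 summits and 19 of 25 Pho4 replicate 2 summits lay on the start-codon side of it. Over all 17 and 25 summits, on either side, the median offset was 127 and 96 bp toward the start codon. Within 50 bp of the core lay 0 and 4 of them. For Cbf1, 10 of 12 and 7 of 10 upstream summits lay on the start-codon side. The median offset over all 12 and 10 was 49.5 and 125.5 bp toward the start codon. RPS18A and RPL40A, printed above, have the core 321 and 352 bp from the start codon and Pho4 summits at 208 and 225 bp and at 238 and 249 bp. RPL13B has a pair of cores facing in opposite directions, 417 and 327 bp from its start codon, and its Pho4 summits lay at 232 bp in both libraries. A match of these letters is a description of the reference sequence and not a measured Rap1 site.

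**Figure D4:**
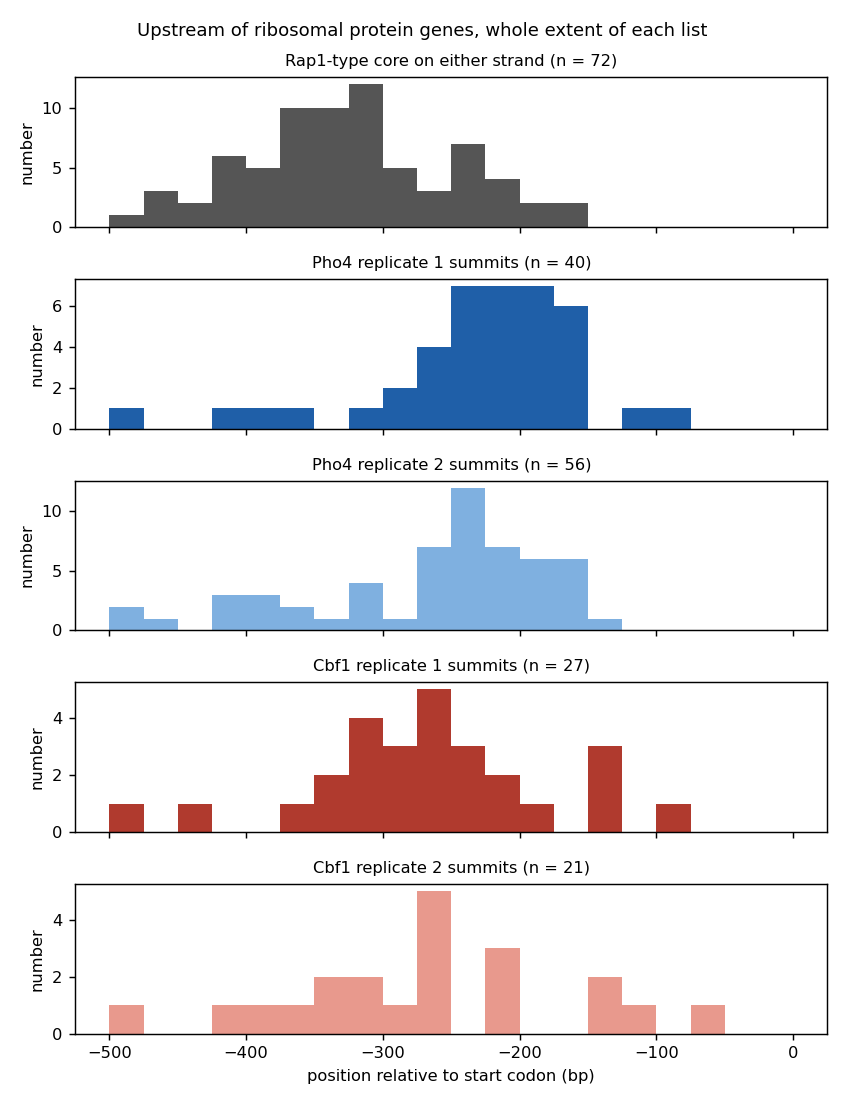
Number of matches to the Rap1-type core (top) and of upstream summits in each of the 4 lists, by distance to the start codon in bins of 25 bp, for all ribosomal protein genes a list covers. The cores have a median of 326.5 bp from the start codon, and most Pho4 summits lie nearer to the start codon than that.

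The peaks at ribosomal protein genes were not among the highest. Their median fold was 2.96, 3.17, 2.28 and 2.77, against 3.11, 3.44, 2.16 and 2.81 at other peaks. As a percentile within each list the medians were 46.8, 42.5, 56.4 and 48.6, and the factors differed by 7.83 percentile points (exact permutation p = 0.33). The local background at ribosomal protein genes was above that at other peaks in both Cbf1 lists. The median local background, solved from the authors' fold and p, was 22.3, 9.09, 35.0 and 21.0 reads at ribosomal protein genes and 21.7, 11.7, 27.4 and 17.5 reads at other peaks. On the log2 scale the ratio of these medians was 0.04, -0.36, 0.35 and 0.27, higher in both Cbf1 libraries, with a difference between factors of 0.47 (exact permutation p = 0.33), which was 0.04 without genes that have a close paralog. Without those genes the log2 ratio was 0.26, 0.36, 0.47 and 0.23, and the difference between factors in body summits was 53.85 points. The part of this background in the Cbf1 body peaks was not tested. Median summit heights were 65.5, 33, 80 and 60 reads, against 68, 41, 61 and 46 at other peaks.

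Other genes of the translation and growth programme were counted in the same way, against 43.5%, 39.2%, 32.7% and 31.7% of all genes other than cytosolic ribosomal protein genes with a peak and 16%, 13.7%, 14.8% and 14.8% with a body summit. Of 9 translation factor genes in the compared region, 5, 4, 8 and 7 had a peak and 3, 0, 6 and 6 had a body summit. EFB1, which encodes an elongation factor subunit, had folds of 26.2, 23.2, 7.64 and 14.2 with summits at -299, -317, -282 and -316 bp from the start codon. TEF4, another elongation factor gene, had Pho4 folds of 11.3 and 10.2 and a Cbf1 replicate 2 fold of 3.47, and YEF3, of elongation factor 3, had 6.22, 10.2 and 3.18 in the same lists. HYP2, which encodes the factor eIF5A, had folds of 4.26, 3.60, 3.96 and 4.67. TEF2, a gene of elongation factor 1A, had Pho4 folds of 4.21 and 4.60 with summits at -323 and -363 bp and Cbf1 folds of 3.30 and 3.80 at 799 and 798 bp into the gene. All 7 glycolytic genes had a peak in every list, and 6, 2, 6 and 5 of them had a body summit. Their folds reached 22.7 and 24.1 for Pho4 at HXK1, 16.2 and 20.1 at PGK1 and, outside the compared region, 27.4 and 22.3 at ENO1. The summits of the highest PGK1 peaks lay past the 500 bp window, at -564, -523, -524 and -523 bp in the 4 lists. So did those of ENO1, at -659 and -656 bp for Pho4 and -686 bp in Cbf1 replicate 2. Among glycolytic genes covered by both Cbf1 lists, the highest Cbf1 folds were 8.32 and 16.7 at GLK1, 5.61 and 9.91 at PGK1 and 2.71 and 4.18 at TPI1. Beyond them Cbf1 replicate 2 had folds of 18.3 at TDH2 and 12.3 at ENO1. Of 28 mitochondrial ribosomal protein genes, 6, 3, 6 and 4 had a peak and 1, 0, 5 and 1 had a body summit. The share with a peak was below that of the cytosolic genes in each list. RSM10 had Pho4 folds of 25.8 and 29.2 and Cbf1 folds of 1.88 and 2.68, and MRPL38 had Pho4 folds of 7.45 and 7.58. The RSM10 summits lay at -532, -495, -427 and -646 bp, the first and last of them past the 500 bp window. MRP4, whose summits lay beyond the 500 bp window at -551, -592 and -540 bp, had Pho4 folds of 10.5 and 12.7 and a Cbf1 replicate 2 fold of 23.9. RSM7, named after its value was seen, had a Cbf1 replicate 2 fold of 11.4. In genes covered by both Cbf1 lists, Cbf1 folds were 1.835 and 2.103 at MRPL36 and 1.66 and 2.16 at MRPS35. Of 4 regulators of ribosomal protein genes in the region, 3 had a peak in every list. HMO1, which encodes a high mobility group protein of these promoters, had Pho4 folds of 8.12 and 6.15 with summits at -211 and -201 bp and Cbf1 folds of 2.04 and 2.23 at 333 and 567 bp into the gene. UTP22 had folds of 5.68, 4.17, 2.27 and 3.33, and REB1 had 2.30, 3.03, 7.89 and 14.4, all upstream. The Cbf1 summits of UTP22 lay past the 500 bp window, at -592 and -570 bp. CRF1 had no peak in any list.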

How the data were processed

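The deposited data were 4 peak lists, 1 per library, and the members and gene lists were chosen with earlier results of these data known. Per the submitters' processing notes, which give no order or role, cutadapt 1.8.1, Bowtie 1.1.2, SAMtools 1.3.1, bedtools and MACS2 2.1.1 were used with the build sacCer3. The authors' columns hold a score, a fold over local background as a ratio, and p and q-values as −log10, with a summit position. Each library has its own list. Read depth is not part of the lists, and intervals of counting error were not computed.

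Gene bodies, introns and sequences came from the R64 reference annotation. Protein identity was computed by translating the R64 coding sequences, in place of a protein table. The body runs from start to stop codon, and distances are from the start codon. Each list was taken to end at its last peak. Summit height k and background b were solved from fold as (k + 1)/(b + 1) and the Poisson p, up to a −log10 p of 250. The solution matched −log10 p within 0.001 for 99.95% to 100% of peaks, and for 0.713% to 1.25% when fold and p of different peaks were paired. Differences between factors, as the mean of 2 libraries less the mean of 2, were tested by exact two-sided permutation. Other counts are set beside the share of other protein-coding genes without a test. The procedures were tested on simulated data. Python 3.11.15, numpy 2.4.6, pandas 2.3.3, scipy 1.17.1, Biopython 1.88 and matplotlib 3.10.9 were used.

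Named genes were, per factor, the 8 members of highest mean fold with a peak in both libraries and up to 5 split paralog pairs. They also included members in all 4 lists, with CACGTG upstream or of the stalk, and 3 genes of highest mean fold per factor in each other list. Further members are named for completeness of a count. Members of 1 pair are counted but not reported by name here. Results were recomputed with the best-scoring 50% of peaks (−log10 q), with equal lengths, whole extents, 1000 bp windows and a summit inside the gene, and without peaks at noncoding genes, members with a paralog of at least 95% protein identity, or peaks nearer to another gene. Windows of 25 and 100 bp, a replicate block and leaving out each library were also tried.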

Additional observations from a re-analysis of the deposited data

Results flagged for a closer look

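The share of genes with a body summit moved in opposite directions for the 2 factors. Ribosomal protein genes less other genes gave -7.26 and -13.7 percentage points in the Pho4 libraries and 46.6 and 50.1 points in the Cbf1 libraries. The difference of the means was 58.85 points. The median peak width did likewise, 39 and 35 bp narrower at ribosomal protein genes in the Pho4 lists (-39 and -35) and 99 and 195.5 bp wider in the Cbf1 lists, a difference of 184.2 bp. Both were marked because every library of 1 factor lay below other genes and every library of the other lay above. The exact permutation p is 0.33 for body summits of ribosomal protein genes themselves, the smallest that 4 libraries allow, and the 2 differences from other genes were not tested.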

How the results depend on the processing

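Of 107 values, 94 kept the sign of the difference or stayed within the limit set for counts, 9 reversed and 4 moved. The size of a difference was not judged. The replicate block left each difference unchanged, so its values could not reverse. The difference between factors in genes with a peak ran from 25.4 to 42.3 points over the alternatives other than leaving out a library, the excess from 33.7 to 51.4 and body summits from 49.1 to 58.8. Leaving out 1 library gave 25.4 to 37.7, 36.7 to 44.7 and 54.4 to 63.2 points for these, -21.9 to 9.65 for upstream summits, 3.98 to 11.7 for the fold percentile, 1.16 to 2.56 points for CACGTG and 0.27 to 0.67 for the log2 background ratio. The upstream difference reversed to 0.877 in the upper 50% of each list, to 7.69 without members that have a close paralog and to 9.65 without Cbf1 replicate 2. The CACGTG difference reversed to -1.35 in the upper 50%, -1.63 over whole extents, -1.41 with 1000 bp upstream, -0.613 with a summit inside the gene, -9.00 without close paralogs and -1.13 within 25 bp. Without close paralogs 13 members were left, with 2 in both Pho4 lists, against 34.9% of other genes, and 9 in both Cbf1 lists, against 25.2%. The log2 background difference was then 0.04. Both Pho4 lists held 5 of 57 members in the upper 50%, against 534 of 2451 other genes. Over whole extents they held 38 of the 108 members covered, against 35% of other genes. The cause of the reversals was not tested. With replicate number as a block the differences in body summits were 52.6 and 64.9 points, whose exact sign-flip p is 0.50, the smallest it allows. For upstream summits they were 8.77 and -21.1 points, with a p of 1.00. Between the replicate differences of the 2 factors in presence of a peak, r was -0.03 across 2508 genes. This cannot show whether libraries of the same replicate number were handled together. Median summit heights over all peaks of the compared region were 68, 41, 63 and 48 reads, higher in replicate 1 of each factor. How height bears on the smallest fold a list holds was not tested.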
